A study of Mus musculus with 8 samples.

Results

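Expression of 10 genes of the hypoxia-inducible factor (HIF) pathway was compared between sham mice and mice with bilateral carotid artery stenosis (BCAS). These were Hif1a, Epas1, Egln1, Egln3, Bnip3, Pdk1, Ankrd37, Adm, P4ha1 and Ddit4, chosen by symbol among the 54752 genes counted, and all 10 had enough counts to be tested. The question was whether a HIF response could be seen in the cortex 3 weeks after surgery. Wild-type male mice aged 14 weeks were used (C57BL/6 in the labels, C57BL/6 J in the methods), 4 per group, with 1 right cerebral cortex per library. In BCAS mice a microcoil was placed around each common carotid artery, the tighter of the pair on the right, and sham mice had the same operation without coils. The tissue was whole cortex from the side of the tighter coil, so each library mixes RNA from all its cell types.

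HIF is a transcription factor made of an alpha subunit (HIF-1alpha from Hif1a, HIF-2alpha from Epas1) and the partner ARNT. When oxygen is plentiful, prolyl hydroxylases encoded by Egln1, Egln2 and Egln3 mark the alpha subunits for destruction through the von Hippel-Lindau protein. When oxygen is short, the alpha subunits last, pair with ARNT and bind DNA at hypoxia response elements with the core letters ACGTG or GCGTG. This regulation acts mostly on the protein, which RNA-seq does not measure. Hif1a mRNA is also known to be induced by inflammatory signals in myeloid cells, and Epas1 is known for its high expression in endothelial cells.

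Promoter sequence could be read for 9 of the 10 genes (all except Epas1), as the 250 bases before the transcription start in RefSeq on GRCm38.p6. The promoters of Hif1a, Adm and P4ha1 are shown because these genes were higher in BCAS mice, and that of Bnip3 because it is a well-known target that was not. Each is written 5′ to 3′ along its gene, with ACGTG or GCGTG in capitals where they occur on either strand (on the other strand they read CACGT and CACGC).
Hif1a: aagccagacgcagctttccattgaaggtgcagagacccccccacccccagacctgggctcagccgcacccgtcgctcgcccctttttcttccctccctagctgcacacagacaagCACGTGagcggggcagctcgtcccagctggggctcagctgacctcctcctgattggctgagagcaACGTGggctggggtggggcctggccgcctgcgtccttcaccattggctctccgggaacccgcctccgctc
Adm: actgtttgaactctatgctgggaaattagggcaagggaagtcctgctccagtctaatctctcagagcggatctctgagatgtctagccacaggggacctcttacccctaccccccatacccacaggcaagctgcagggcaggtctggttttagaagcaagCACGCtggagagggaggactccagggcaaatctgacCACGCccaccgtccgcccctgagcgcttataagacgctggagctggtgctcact
P4ha1: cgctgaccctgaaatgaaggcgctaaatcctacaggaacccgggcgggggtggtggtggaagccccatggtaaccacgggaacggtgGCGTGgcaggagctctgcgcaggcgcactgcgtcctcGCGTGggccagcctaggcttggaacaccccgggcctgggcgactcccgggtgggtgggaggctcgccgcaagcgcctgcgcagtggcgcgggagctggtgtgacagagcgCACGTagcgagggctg
Bnip3: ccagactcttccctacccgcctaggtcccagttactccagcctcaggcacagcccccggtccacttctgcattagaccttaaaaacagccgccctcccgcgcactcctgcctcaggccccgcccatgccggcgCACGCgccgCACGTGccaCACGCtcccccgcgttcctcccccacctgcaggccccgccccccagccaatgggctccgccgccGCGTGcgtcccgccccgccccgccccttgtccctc

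The windows lie at chr12:73907617-73907866 on the plus strand for Hif1a, chr7:110627407-110627656 on the plus strand for Adm, chr10:59323046-59323295 on the plus strand for P4ha1 and chr7:138909507-138909756 on the minus strand for Bnip3. Hif1a holds ACGTG with its first base at position -70 from the start and on both strands of a CACGTG at -135, where the matches overlap. P4ha1 holds ACGTG on the other strand at -16 and GCGTG at -163 and -126. In Adm only GCGTG occurs, on the other strand at -90 and -54. The Bnip3 window holds a CACGTG at -108 and GCGTG at -35 and, on the other strand, at -117 and -99. The 9 genes have 10 windows, since Pdk1 has 2 starts, and its second window holds no match. Of the 10 windows, 7 had ACGTG and 9 had ACGTG or GCGTG, against 16.6% and 38.6% of 32851 mouse promoter windows of the same length. The match is a description of the letters only, and the base composition of the windows was not compared.

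The total counts were between 16759364 and 21794435 per library. In the smallest library a count of 0 allows up to 0.187 CPM (counts scaled to a common library size), the value of 3 counts, which covers counting error only. Levels are given as CPM with library sizes scaled by edgeR's TMM method, and differences as log2 fold changes of BCAS over sham ± standard error (SE), tested with the quasi-likelihood method of edgeR, with p-values adjusted by Benjamini and Hochberg's procedure over 17136 genes. BCAS mouse 1 and BCAS mouse 2 stood apart from the other BCAS mice in opposite directions on the microglia and neuron marker lists described further on. Sham mouse 3 also stood apart, as 5 choroid plexus markers summed to 774.9 CPM in it, against 31.87 to 70.01 CPM in BCAS mice and as little as 13.9 CPM in another sham mouse. Neuronal markers were abundant in the cortex of all 8 mice, with a sum of 4175 to 11810 CPM.

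Of the 10 genes, 3 (Hif1a, Adm and P4ha1) rose after BCAS, with an adjusted p under 0.05, and 0 fell. Over all tested genes, 32.0% passed this threshold, 19.2% higher and 12.8% lower, so 3 of 10 is near the background. With library size alone in place of TMM, 75.5% of the called genes were higher, against 59.9% with TMM. This background moved with single mice too, and without sham mouse 1 there were 2549 called genes of 17613, 83.6% of them higher, and 2 of the 10 genes were called. At an unadjusted p under 0.05 there were 6 of 10, against 46.2% of all genes, and DESeq2 also called Bnip3 lower. Hif1a and Adm also had an absolute log2 fold change above 1, the further threshold of the study, which 12.2% of all genes passed. The same 2 genes were the ones whose groups did not overlap, as was the case for 34.8% of all genes. The median log2 fold change was 0.17 over the 10 genes and -0.01 over all genes.

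**Figure D1:**
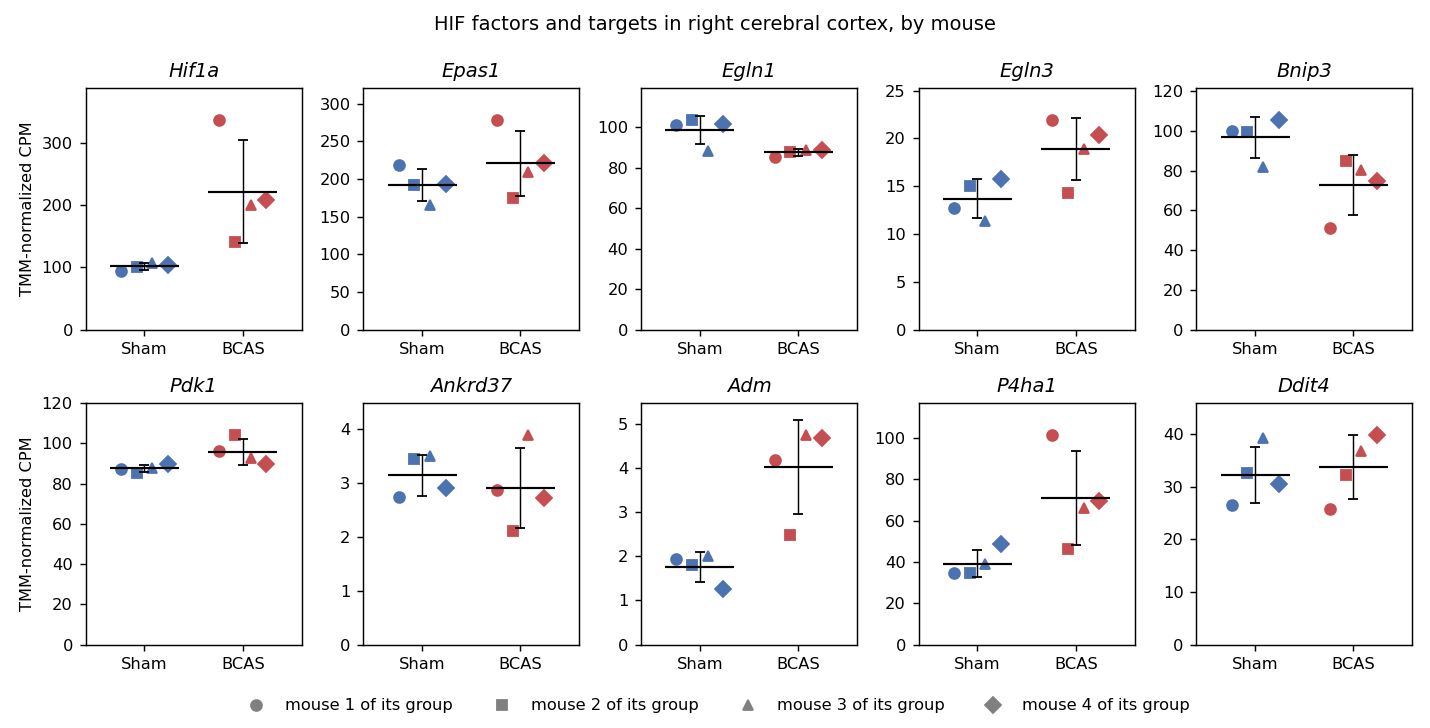
TMM-normalized CPM (y axis, from 0) of the 10 genes in each mouse. Sham mice are in blue and BCAS mice in red, with a marker shape for each mouse number. The numbers are not known to pair mice across groups. Bars show the mean and SD of 4 mice. Hif1a and Adm are the panels in which every BCAS mouse lies above every sham mouse.

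Hif1a (ENSMUSG00000021109.13, chromosome 12, 73901375 to 73947530, plus strand), which encodes HIF-1alpha, had 93.8, 101.5, 107 and 104 CPM in sham mice 1 to 4. The level in BCAS mice 1 to 4 was 337.6, 141, 201 and 208 CPM. The sham mice lay close together, and every BCAS mouse was above all of them, mouse 1 highest and mouse 2 lowest. The mean rose from 101.6 ± 5.7 CPM (SD, n = 4) to 221.8 ± 82.8 CPM (SD, n = 4). The log2 fold change was 1.13 ± 0.23 (SE, 95% interval 0.61 to 1.64, edgeR adjusted p = 0.00911), a 2.18-fold rise. It stayed past the adjusted threshold in all 17 alternative fits, between 0.86 without BCAS mouse 1 and 1.304 without BCAS mouse 2. Without BCAS mouse 1 Hif1a therefore no longer passed the threshold on the fold change. Other genes cover 8.11% of its exon bases (Gm15283 and Gm49321), where reads could not be assigned to a single gene.

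Epas1 (ENSMUSG00000024140.10, chromosome 17, 86753700 to 86833410, plus strand), which encodes HIF-2alpha, had 218, 193, 166 and 193 CPM in sham mice 1 to 4. In BCAS mice 1 to 4 it had 279, 175, 209 and 222 CPM. The groups overlapped, and BCAS mouse 2 lay below 3 of the sham mice. The log2 fold change was 0.20 ± 0.15 (SE, edgeR adjusted p = 0.307), with a 95% interval from -0.13 to 0.53, so that a rise above 1.45-fold lies outside the interval. The value was 0.08 without BCAS mouse 1 and 0.31 without BCAS mouse 2 (edgeR adjusted p = 0.0683).

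The prolyl hydroxylases did not pass the threshold. Egln1 (PHD2, ENSMUSG00000031987.6, chromosome 8, 124908587 to 124949324, minus strand), the main oxygen sensor of the family, had 101, 104, 88.0 and 101 CPM in sham mice and 85.0, 87.8, 88.8 and 88.9 CPM in BCAS mice. BCAS mice spanned less than 4 CPM and lay at the low end of the sham mice, where sham mouse 3 overlapped them. For Egln1 the log2 fold change was -0.17 ± 0.07 (SE, edgeR adjusted p = 0.106). Without sham mouse 3, the mouse with the choroid plexus markers, it was -0.23 with an edgeR adjusted p of 0.0485, and with library size alone it was -0.08 (edgeR adjusted p = 0.399).

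Egln3 (PHD3, ENSMUSG00000035105.5, chromosome 12, 54178981 to 54203860, minus strand) is itself a HIF target and acts as feedback on HIF. It had 12.7, 15.0, 11.4 and 15.7 CPM in sham mice 1 to 4. In BCAS mice 1 to 4 it had 21.9, 14.3, 18.9 and 20.4 CPM. In BCAS mice 1, 3 and 4 the level was above all sham mice, while mouse 2 lay among them. The Egln3 log2 fold change of 0.46 ± 0.16 (SE, edgeR adjusted p = 0.0529) fell just short of the threshold, with a 95% interval from 0.10 to 0.83. Without BCAS mouse 2 it was 0.59 with an edgeR adjusted p of 0.00652, and DESeq2 gave an adjusted p of 0.0284 for all mice.

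Adm (ENSMUSG00000030790.15, chromosome 7, 110627661 to 110629820, plus strand) encodes adrenomedullin, a secreted peptide that widens blood vessels. Its counts were low, at 34, 29, 35 and 21 for sham mice 1 to 4 against 95, 48, 88 and 86 for BCAS mice 1 to 4. These correspond to 1.93, 1.81, 2.002 and 1.27 CPM in sham and 4.18, 2.47, 4.75 and 4.69 CPM in BCAS mice. Every BCAS mouse was above every sham mouse, and BCAS mouse 2 was the lowest. The log2 fold change was 1.19 ± 0.27 (SE, 95% interval 0.59 to 1.80, edgeR adjusted p = 0.0131), a 2.29-fold rise. Its adjusted p was under 0.05 in all 17 alternative fits, with log2 fold changes from 0.85 on the log2(CPM + 1) scale to 1.38.

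P4ha1 (ENSMUSG00000019916.14, chromosome 10, 59323296 to 59373304, plus strand) encodes the catalytic subunit of collagen prolyl 4-hydroxylase, which collagen needs to fold. It had 34.4, 34.8, 39.0 and 48.6 CPM in sham mice 1 to 4. In BCAS mice 1 to 4 it had 101.6, 46.3, 66.2 and 69.4 CPM. BCAS mouse 2 lay below sham mouse 4, and the other BCAS mice lay above all sham mice. The log2 fold change was 0.86 ± 0.22 (SE, 95% interval 0.36 to 1.36, edgeR adjusted p = 0.0215), a 1.81-fold rise. The call was lost without sham mouse 1 (0.79, edgeR adjusted p = 0.0663) or sham mouse 2 (0.79, edgeR adjusted p = 0.0646).

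The other 4 targets, Bnip3, Pdk1, Ddit4 and Ankrd37, did not pass the threshold. Bnip3 (ENSMUSG00000078566.8, chromosome 7, 138890836 to 138909519, minus strand) encodes a mitochondrial receptor for mitophagy. It had 99.96, 99.4, 81.9 and 105.6 CPM for sham mice 1 to 4 against 51.0, 84.6, 80.4 and 74.6 CPM for BCAS mice 1 to 4. BCAS mice lay at or under the low end of the sham mice, with mouse 1 lowest. For Bnip3 the log2 fold change was -0.41 ± 0.16 (SE, edgeR adjusted p = 0.0691), with a 95% interval from -0.77 to -0.06, while hypoxia is known to raise this gene. Without BCAS mouse 1 it was -0.26, without BCAS mouse 2 it was -0.48 with an edgeR adjusted p of 0.0304, and DESeq2 gave an adjusted p of 0.0461 for all mice. Gm45507 on the opposite strand covers 22.3% of the exon bases of Bnip3, where counting without regard to strand cannot separate the genes.

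Pdk1 (ENSMUSG00000006494.11, chromosome 2, 71873224 to 71903858, plus strand) encodes a kinase that keeps pyruvate out of the citric acid cycle. It had 87.3, 85.4, 87.6 and 89.9 CPM in sham mice and 96.3, 104, 92.7 and 89.7 CPM in BCAS mice. Here BCAS mouse 2 was highest, and mouse 4 lay within the sham range. For Pdk1 the log2 fold change was 0.13 ± 0.07 (SE, edgeR adjusted p = 0.187), and its 95% interval ended at 0.29. With library size alone Pdk1 was at 0.22 and passed the threshold (edgeR adjusted p = 0.0436).

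Ddit4 (REDD1, ENSMUSG00000020108.4, chromosome 10, 59949669 to 59951834, minus strand) encodes an inhibitor of mTORC1 that responds to hypoxia and other stress. It had 26.6, 32.6, 39.4 and 30.5 CPM in sham mice and 25.8, 32.4, 36.9 and 39.9 CPM in BCAS mice. The groups covered nearly the same range, and the log2 fold change was 0.06 ± 0.16 (SE, 95% interval -0.30 to 0.43, edgeR adjusted p = 0.778). Ankrd37 (ENSMUSG00000050914.16, chromosome 8, 45996902 to 46005707, minus strand), an ankyrin repeat gene known as a HIF-1 target, had 48, 55, 61 and 48 counts in sham and 65, 41, 72 and 50 counts in BCAS mice. Its log2 fold change was -0.12 ± 0.23 (SE, 95% interval -0.63 to 0.40, edgeR adjusted p = 0.716). Ufsp2 and Lrp2bp on the opposite strand cover 26.4% of its exon bases.

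**Figure D2:**
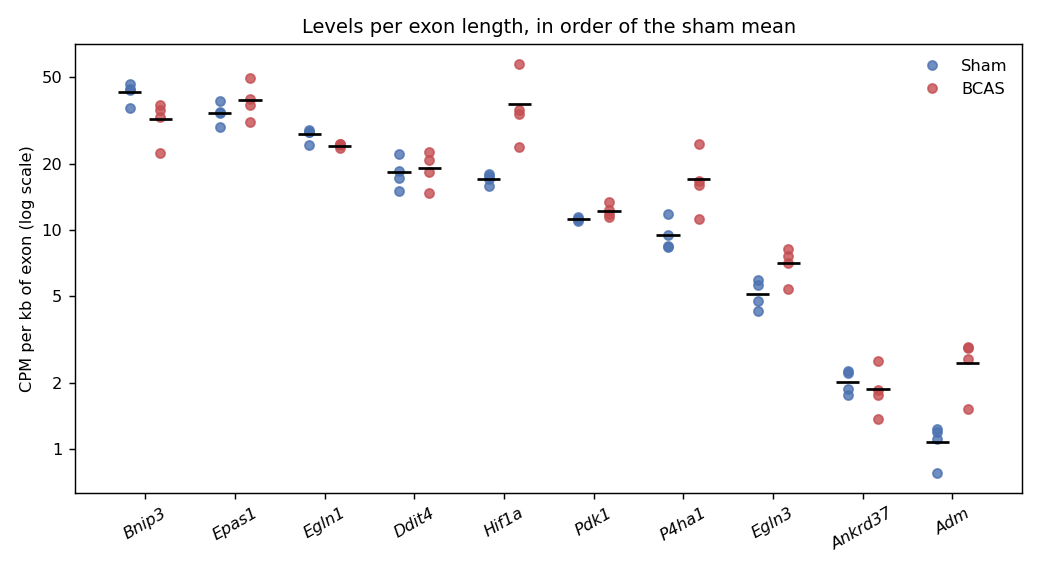
CPM per kb of exon (y axis, log scale) of the 10 genes, in order of the sham mean, with a point for each of 4 sham mice (blue) and 4 BCAS mice (red) and bars at the group means. Hif1a moves from rank 5 in sham to rank 2 in BCAS mice, and Adm and Ankrd37 are lowest in both groups. Exon bases shared with other genes are part of the length, which can lower Hif1a, Bnip3 and Ankrd37 and change close ranks.

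Divided by exon length, the levels in sham mice ran from 42.7 CPM per kb for Bnip3 to 1.08 CPM per kb for Adm. Bnip3 was followed by Epas1 at 34.4, Egln1 at 27.4, Ddit4 at 18.4, Hif1a at 17.2, Pdk1 at 11.3, P4ha1 at 9.52, Egln3 at 5.15 and Ankrd37 at 2.04 CPM per kb. Neighbors in this order whose ranges over the sham mice overlapped were Bnip3 and Epas1, Ddit4 and Hif1a, and Pdk1 and P4ha1. In BCAS mice the order opened with Epas1 at 39.6, Hif1a at 37.6, Bnip3 at 32.1 and Egln1 at 24.4 CPM per kb, each overlapping the next. Sham mice thus had about as much Hif1a as Ddit4 mRNA per length, whereas in BCAS mice Hif1a was in the range of Epas1. The exon length includes bases shared with other genes (8.11% for Hif1a, 22.3% for Bnip3 and 26.4% for Ankrd37). Reads there could not be assigned, so the levels of these genes can be too low. Ranks of genes with close levels can change with this.

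Hif1a, P4ha1, Epas1 and Egln3 ranked the BCAS mice in the same order, with mouse 1 highest, then mouse 4, mouse 3 and mouse 2. Over the 10 genes, BCAS mouse 2 was the lowest BCAS mouse for 6 and the highest for 2, and mouse 1 was the highest for 4 and the lowest for 3. For Hif1a the log2 level above the sham mean was 1.73, 0.47, 0.98 and 1.03 in BCAS mice 1 to 4, and for P4ha1 it was 1.38, 0.24, 0.76 and 0.83. For Bnip3 the order was turned, at -0.92, -0.19, -0.27 and -0.37. Adm, Pdk1, Ddit4, Ankrd37 and Egln1 followed other orders, and Egln1 lay between -0.21 and -0.15 in all BCAS mice.

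Markers of other cell types moved with these mice. All 10 microglia markers rose, with a median log2 fold change of 3.25 and a summed level of 418 to 507.5 CPM in sham and 2223 to 8883 CPM in BCAS mice. Their mean log2 level was 4.15, 2.23, 3.19 and 3.20 above the sham mean in BCAS mice 1 to 4, with mice 3 and 4 nearly equal. Of 6 macrophage and monocyte markers, 5 rose, and their sum went from 23.9 to 32.3 CPM in sham up to 146.5 to 1648 CPM in BCAS mice. All 5 fibroblast markers rose as well, with a sum of 51.7 to 73.3 CPM in sham and 135.3 to 869 CPM in BCAS mice. No marker in these lists was at 0 counts in any library.

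Of 10 neuronal markers, 7 fell and 0 rose, with a median log2 fold change of -0.67 and mean log2 levels of -1.24, -0.29, -0.66 and -0.61 in BCAS mice 1 to 4. Their sum was 10270 to 11810 CPM in sham and 4175 to 8811 CPM in BCAS mice. As with Bnip3, mouse 1 was lowest and mouse 2 highest. For 10 endothelial markers 3 rose, against 19.2% of all genes, with a median of 0.40. The endothelial sum was 282.3 to 359.5 CPM in sham and 344.4 to 519.7 CPM in BCAS mice. Mean endothelial levels were 0.74, 0.03, 0.29 and 0.40 in BCAS mice 1 to 4. The microglia, endothelial, astrocyte, and pericyte and smooth muscle lists ranked the BCAS mice in the order shared by Hif1a, P4ha1, Epas1 and Egln3. For microglia this rests on 3.185 in mouse 3 against 3.195 in mouse 4. The other lists gave other orders. Mouse 3 was above mouse 4 for macrophages and monocytes (3.647 and 2.575), fibroblasts (3.905 and 2.576) and oligodendrocytes (0.363 and 0.301). Of 7 tested pericyte and smooth muscle markers (of 8 listed) 4 rose, and of 8 astrocyte markers 6 rose, with medians of 0.68 and 0.56. None of the 7 oligodendrocyte markers passed the threshold, and 2 of 5 red blood cell markers rose. For all marker lists the background is 19.2% of tested genes higher and 12.8% lower, and the endothelial count of 3 in 10 is near it. The part of these markers in the results for the HIF genes was not tested. In whole tissue, fewer cells of a type and less RNA per cell cannot be told apart.

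**Figure D3:**
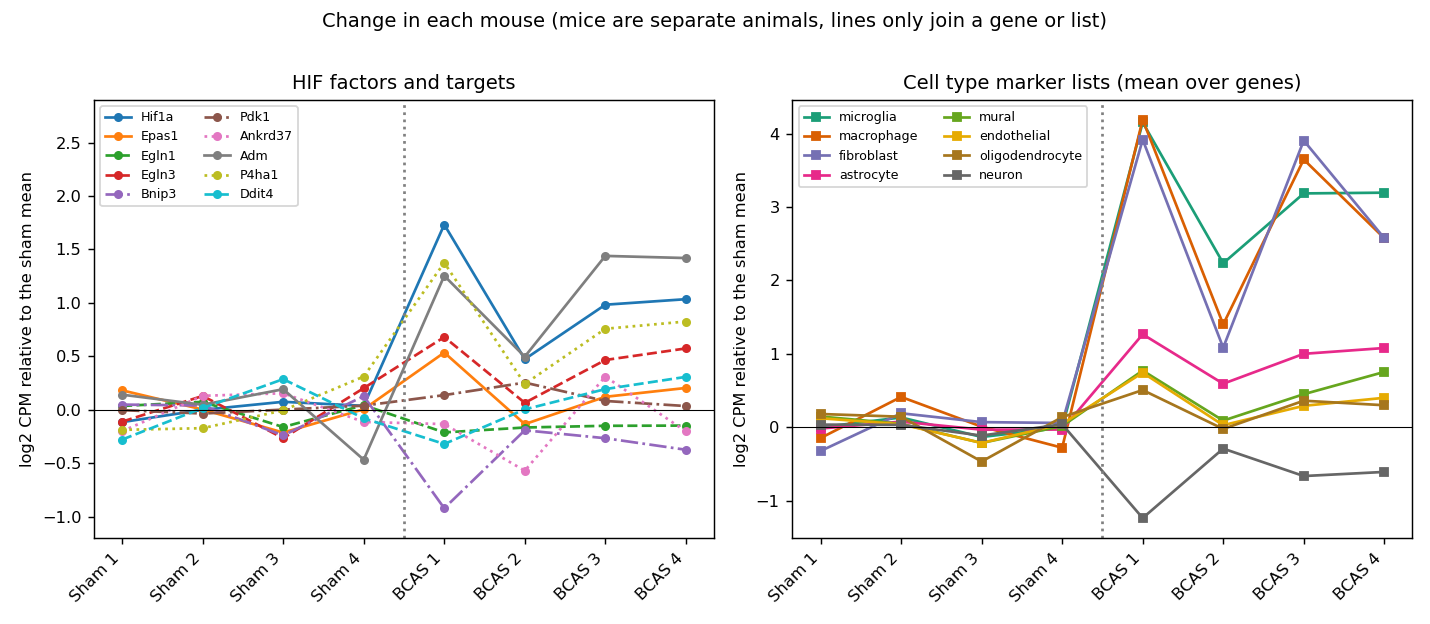
Log2 CPM relative to the sham mean (y axis) in each of the 8 mice, for the 10 genes on the left and for the means of 8 marker lists on the right; lines join the values of a gene or list and do not join animals. On the left Hif1a, P4ha1 and Adm lie above the sham mean and Bnip3 below it in every BCAS mouse, with BCAS mouse 2 nearest to 0 for Hif1a, P4ha1 and Bnip3. On the right the microglia list lies 2.23 to 4.15 above the sham mean in BCAS mice.

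A further list of 48 HIF pathway genes outside the 10 was examined, 11 subunits and regulators and 37 targets. Of these, 47 were tested, 14 rose (29.8%) and 4 fell (8.51%), against 19.2% and 12.8% of all genes. The median log2 fold change was 0.05. The gene without enough counts was Epo, the hormone that drives red blood cell production, with 0 counts in all 4 sham mice and 9, 0, 5 and 6 counts in BCAS mice 1 to 4.

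**Figure D4:**
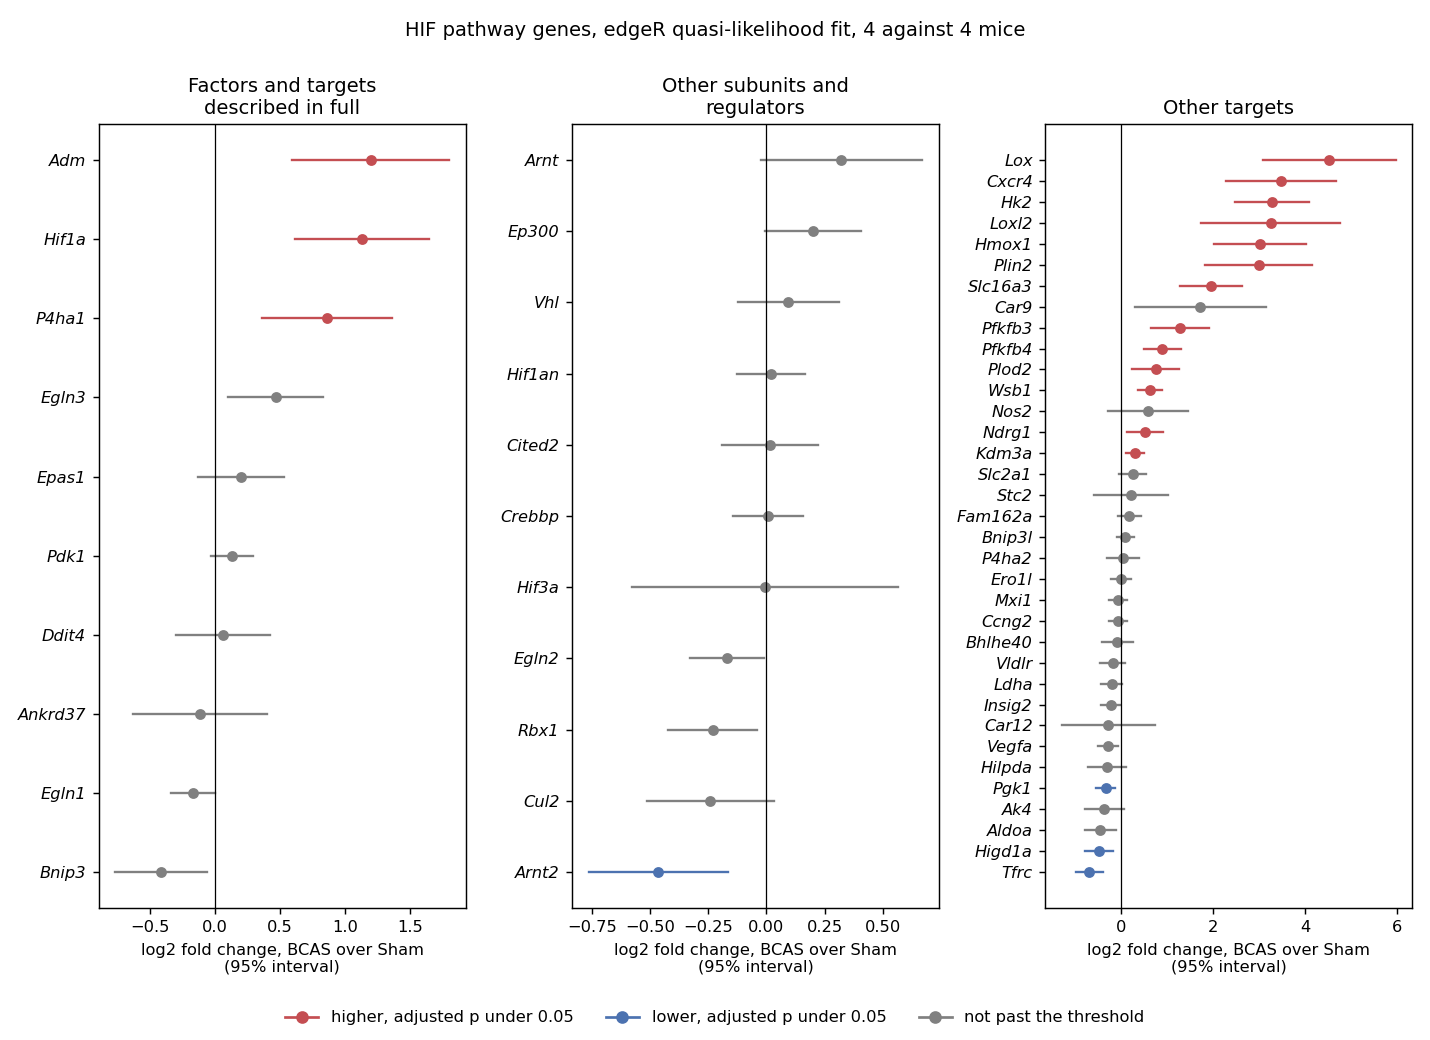
Log2 fold change of BCAS over sham (x axis, a separate scale in each panel) with its 95% interval from edgeR's quasi-likelihood fit, for the 10 genes, 11 other subunits and regulators and the other targets. Red and blue mark higher and lower genes at an adjusted p under 0.05. Among the regulators Arnt2 is the one past the threshold, and the targets spread from -0.68 (Tfrc) to 4.53 (Lox).

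Among the regulators, Arnt2 was the only gene of the 11 to pass the threshold. Arnt2 encodes the ARNT relative that is most abundant in neurons, and fell from 457.6 ± 42.0 CPM (SD, n = 4) to 331.4 ± 52.0 CPM (SD, n = 4), a log2 fold change of -0.47 (edgeR adjusted p = 0.0290). It kept its direction in all 17 alternative fits but lost the call in 6 of them (without sham mouse 1, 2 or 4 or BCAS mouse 3 or 4, and with the mouse number as a block), with adjusted p-values up to 0.0816. Arnt, the common partner of the alpha subunits, had a log2 fold change of 0.32 (adjusted p = 0.132). Without BCAS mouse 2, Arnt passed the threshold at 0.42 (edgeR adjusted p = 0.0373), and without BCAS mouse 1 it was at 0.20 (edgeR adjusted p = 0.282).

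Hif3a, a further alpha subunit, had a log2 fold change of -0.01 (adjusted p = 0.989), with a sign that changed between fits (0.0830 with library size alone). Egln2 was at -0.17 (adjusted p = 0.0890), passed the threshold with DESeq2 (adjusted p = 0.0400), and was at -0.08 with library size alone (edgeR adjusted p = 0.355). Hif1an, the asparagine hydroxylase that keeps HIF from its coactivators, was at 0.02 (adjusted p = 0.837). Its 95% interval ran from -0.13 to 0.17. The parts of the ubiquitin ligase that removes HIF-alpha had values of 0.09 for Vhl (adjusted p = 0.466), -0.24 for Cul2 (adjusted p = 0.150) and -0.23 for Rbx1 (adjusted p = 0.0634). Rbx1 passed the threshold with DESeq2 (adjusted p = 0.0339) and without BCAS mouse 2 (edgeR adjusted p = 0.0313), and Cul2 was at -0.14 without BCAS mouse 1. Vhl was at 0.06 without BCAS mouse 1 and 0.17 without BCAS mouse 2. The coactivators Ep300 and Crebbp were at 0.20 (adjusted p = 0.116) and 0.01 (adjusted p = 0.938), the latter at -0.0072 with upper quartile scaling. Cited2, which competes with HIF for them, was at 0.02 (adjusted p = 0.907), and at -0.00030 with upper quartile scaling.

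Of the 36 other targets tested, 14 rose and 3 fell, against 19.2% and 12.8% of all genes. Of the risers, 9 also had a log2 fold change above 1, and 12.2% of all genes passed both thresholds. The largest rise was that of Lox, a secreted enzyme that cross-links collagen, from 1.09 ± 0.43 CPM (SD, n = 4) to 25.1 ± 17.2 CPM (SD, n = 4), with a log2 fold change of 4.53 ± 0.64 (SE, edgeR adjusted p = 0.00280). The related Loxl2 rose by 3.25 on the log2 scale (edgeR adjusted p = 0.00972), and had a value of 2.83 with limma-voom, where the call was lost (adjusted p = 0.0665). Over the alternative fits the lowest Loxl2 value was 1.91. Cxcr4, a chemokine receptor of leukocytes and microglia, rose by 3.47 (edgeR adjusted p = 0.00343). Hk2, a hexokinase that opens glycolysis and is known from microglia among brain cells, rose by 3.27 (edgeR adjusted p = 0.00156). The groups did not overlap for any of these 4 genes, as was the case for 34.8% of all genes. The 4 genes were taken for the size of their rise, which favors groups that do not overlap. BCAS mouse 2 was lowest among BCAS mice in each.

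The 3 targets that fell were Tfrc, Higd1a and Pgk1. Tfrc, the transferrin receptor for iron uptake, went from 168.1 ± 13.7 CPM (SD, n = 4) to 104.6 ± 18.6 CPM (SD, n = 4), a log2 fold change of -0.68 (edgeR adjusted p = 0.00738). Higd1a, a mitochondrial protein of hypoxic cells, had a value of -0.47 (edgeR adjusted p = 0.0276), and Pgk1, a glycolytic enzyme, had -0.33 (edgeR adjusted p = 0.0288). The calls of Higd1a and Pgk1 were lost when sham mouse 1, 2 or 4 or BCAS mouse 3 was left out, and that of Pgk1 also without BCAS mouse 4, with library size alone, without the filter and with the mouse number as a block.

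Vegfa, Slc2a1 and Ldha, which are among the best-known targets, did not pass the threshold. Vegfa, the main blood vessel growth factor, had 83.8 ± 5.8 CPM (SD, n = 4) in sham and 69.2 ± 7.2 CPM (SD, n = 4) in BCAS mice. Its log2 fold change was -0.28 (95% interval -0.49 to -0.06, edgeR adjusted p = 0.0510). It passed the threshold without sham mouse 3 or without BCAS mouse 2 or 4, at -0.34 to -0.28, with DESeq2 (adjusted p = 0.0265), and with scaling by DESeq2 size factors or upper quartiles. Slc2a1, the glucose transporter of the blood-brain barrier, was at 0.26 (95% interval -0.04 to 0.55, adjusted p = 0.150). Without BCAS mouse 2, Slc2a1 was at 0.38 with an edgeR adjusted p of 0.00996. Ldha, which makes lactate, was at -0.20 (95% interval -0.43 to 0.03, adjusted p = 0.155).

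Of 9 tested relatives and partners of the 10 genes, 3 rose and 1 fell, against 19.2% and 12.8% of all genes. P4ha3, a further catalytic subunit of collagen prolyl hydroxylase, rose by 2.62 on the log2 scale (edgeR adjusted p = 0.00297), from 3.37 ± 0.52 CPM (SD, n = 4) to 20.7 ± 9.9 CPM (SD, n = 4). P4hb, the subunit shared by these enzymes, rose by 0.92 (edgeR adjusted p = 0.0164), which was lost without sham mouse 4 (adjusted p = 0.0509). Calcrl, which forms the adrenomedullin receptor, rose by 0.85 (edgeR adjusted p = 0.0162), which was lost without sham mouse 1 (adjusted p = 0.0532). Its partners were at 0.58 for Ramp2 (adjusted p = 0.0543) and -1.03 for Ramp3 (adjusted p = 0.0521), both just short of the threshold. Ramp2 passed it without BCAS mouse 2, with DESeq2 and with library size alone. Ramp3 passed it without BCAS mouse 1 or BCAS mouse 2, and with upper quartile scaling, without the filter, with DESeq2, with limma-voom and with limma on log2(CPM + 1).

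Pdk2 fell, with a log2 fold change of -0.31 (edgeR adjusted p = 0.0495), and lost the call in 12 of 17 alternative fits, 7 of which left out a mouse (sham mouse 1, 2, 3 or 4 or BCAS mouse 1, 3 or 4), with adjusted p-values up to 0.120. Pdk3 and Pdk4 were at -0.10 (adjusted p = 0.535) and 0.21 (adjusted p = 0.260), and without BCAS mouse 1 at -0.0090 and 0.13. Without BCAS mouse 2 Pdk3 was at -0.16. Ddit4l was at -0.42 (adjusted p = 0.0983), and at -0.55 without sham mouse 3 (edgeR adjusted p = 0.0453). Adm2, a peptide related to adrenomedullin, had 0 counts in all 8 libraries, which allows up to 0.187 CPM in the smallest.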

How the data were processed

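RNA from the right cerebral cortex of 4 sham and 4 BCAS mice was sequenced in pairs. The authors used Trim Galore to trim the reads, HISAT2 to align them to mm10, and SAMtools 1.9. The deposited values are raw counts of read pairs on the exons of 54752 genes, per the file headers made with featureCounts 2.0.1 on GENCODE vM20 without a strand option, whereas the methods name 1.6.3. Gene symbols come from a GENCODE vM21 table matched on the gene ID, which held 54723 of the IDs, 53861 of them in the same version. Coordinates are those of the deposited tables (mm10). Promoters are RefSeq sequences on GRCm38.p6.

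The counts were filtered with filterByExpr (minimum count 10, minimum total 15), which left 17136 genes, scaled by TMM and tested with edgeR 4.0.16 in R 4.3.3 (quasi-likelihood F-test, BCAS against sham, no covariates, Benjamini-Hochberg adjustment over the tested genes). CPM were computed on library sizes over the tested genes. The limma test on log2 values that the study used was run as an alternative. Total counts of 16759364 to 21794435 per library set the precision. The standard error and 95% interval of a fold change were computed from its F-statistic. Where 2 genes share a symbol, the one with more counts was used. The mice of a group are separate animals.

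The 17 alternatives were scaling by DESeq2 size factors, by upper quartiles or by library size alone, a filter of 1 count in total or of 10 counts in each library, a test with DESeq2 1.42.0, with limma-voom or with limma 3.58.1 on log2(CPM + 1), the replicate number as a block, and each mouse left out in turn. The procedures were tested on simulated data. Figures were drawn with matplotlib 3.10.9. Genes named are the 10 genes, all regulators and relatives listed, the up to 5 other targets with the largest rise and fall among those past the threshold, and Vegfa, Slc2a1 and Ldha, as well as the 3 genes closest in pattern to Hif1a and to Epas1. For 1 of these targets the values are not reported here. Epo was named after its counts were seen. The genes and lists were chosen with earlier results of these data known.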

Additional observations from a re-analysis of the deposited data

How the results depend on the processing

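Among the 10 genes, Hif1a and Adm kept their direction and call in all 17 alternative fits and P4ha1 in 15. The number of genes higher in BCAS mice was 3 as reported, 5 with library size alone (Egln3 and Pdk1 added), 4 with DESeq2 or with at least 10 counts in every library (Egln3 added) and 2 to 4 with a mouse left out. The number lower was 0, 1 with DESeq2 (Bnip3) and 0 to 1 with a mouse left out (Egln1 without sham mouse 3, Bnip3 without BCAS mouse 2). Past both thresholds there were 2, 1 with limma on log2(CPM + 1) and 1 to 3 with a mouse left out (1 without BCAS mouse 1). Of the 47 other pathway genes tested, 14 were higher, with 11 to 17 over the alternatives, and 4 lower, with 8 under DESeq2 and 1 (without sham mouse 1, 2 or 4 or BCAS mouse 3) to 8 (without BCAS mouse 2) with a mouse left out. The mouse numbers are not known to pair the mice. Deviations of same-numbered mice from their group means correlated between -0.103 and 0.00126 over genes. Those of differently numbered mice correlated between -0.112 and 0.125. The ranges overlap, so these values cannot decide whether mice were paired. With the replicate block there were 2 lower pathway genes and 3546 called genes in all in place of 5490, and the counts for the 10 genes were 3, 0 and 2. Leaving out a mouse gave 2549 (without sham mouse 1) to 8166 called genes (without BCAS mouse 2), and this count moved by over 1.5 times without sham mouse 1, 2 or 4 or BCAS mouse 3 or 4. Library size alone raised the share of called genes that were higher from 59.9% to 75.5% and the median log2 fold change of all genes from -0.01 to 0.08. That share was 68.2% with the replicate block and 55.0% to 83.6% with a mouse left out, with 80.9% without sham mouse 2, 80.0% without sham mouse 4, 75.5% without BCAS mouse 3 and 78.0% without BCAS mouse 4. The cause of these shifts was not tested.

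Signs turned for 6 genes near 0. With a mouse left out, Ankrd37 ranged from -0.288 to 0.0199, Ddit4 from -0.0267 to 0.183, Hif3a from -0.192 to 0.162, Hif1an from -0.0101 to 0.0389, Cited2 from -0.0379 to 0.0622 and Crebbp from -0.0236 to 0.0220. Hif3a was at 0.0830 with library size alone, 0.013 with at least 10 counts in every library, 0.036 with limma-voom, 0.021 with limma on log2(CPM + 1) and 0.027 with the replicate block. With the upper quartile, Cited2 was at -0.00030 and Crebbp at -0.0072. Of the 10 genes, Adm (21 to 95 counts) and Ankrd37 (41 to 72 counts) had the lowest counts.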

Other observations

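The genes whose pattern over the 8 libraries was most like that of a HIF factor were searched among 12437 other tested genes, each with 100 counts or more on average, by Pearson's r of log2 CPM. For Hif1a these were Ttc28 (r = 0.998), Nbeal2 (r = 0.997) and Znrf2 (r = 0.997), with log2 fold changes of 0.93, 1.39 and 1.03 (adjusted p = 0.00805, 0.00620 and 0.00712 from edgeR's test). In all, 1474 genes had an r above 0.95 with Hif1a. For Epas1 they were Carmil1 (r = 0.982), Htra1 (r = 0.977) and Znfx1 (r = 0.972), none of which passed the threshold, and only 18 genes had an r above 0.95. The points of these correlations are the 2 groups and the spread between BCAS mice 1 and 2, so the values are descriptions of this set of mice.

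Between pairs of the 10 genes, r over the 8 libraries was 0.968 for Hif1a and P4ha1, 0.873 for Hif1a and Egln3, 0.868 for Hif1a and Adm and -0.918 for Hif1a and Bnip3. With the other genes, r for Hif1a was 0.732 (Epas1), 0.479 (Pdk1), -0.0358 (Ankrd37), -0.056 (Ddit4) and -0.75 (Egln1). These pairs share libraries and the same difference between groups.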
